A study of Mus musculus with 20 samples.

Results

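The genes examined were 9 genes of vitamin A handling in the mouse cecum, chosen by name from the 19887 genes of the count table: Rbp2, Rbp4 and Rbp7, which bind retinol, Rdh10 and Dhrs9, which oxidize retinol to retinal, Aldh1a1, Aldh1a2 and Aldh1a3, which oxidize retinal to retinoic acid, and Cyp26b1, which breaks retinoic acid down. The 9 were chosen with earlier results of these data known. All 9 were found by their Ensembl identifiers, and all 9 were among the 15348 genes with enough reads to be tested. Cecum RNA was sequenced from 20 C57BL/6 mice that were 3 weeks old when the feeding began, spent 6 weeks on the Total Western Diet (TWD) alone, followed by 3 weeks on TWD with 0, 2, 5 or 10% raw potato starch (RPS). The TWD is a rodent diet built after the nutrient intakes of Americans, and RPS is an uncooked starch that largely escapes digestion in the small intestine. Each diet had 5 mice, and all mice, those on 0% RPS included, had the TWD throughout. The tissue was bulk cecum, so that fewer cells of a type and less RNA per cell cannot be told apart in any value below.

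Vitamin A reaches the gut lining as retinol and as provitamin carotenoids, and inside the cell it is held by small binding proteins, esterified for export or oxidized in turn to retinal and to retinoic acid. Retinoic acid enters the nucleus, binds the retinoic acid receptors and acts on many genes of the epithelium and of the immune cells beneath it. Cells that make retinoic acid and cells that destroy it set its level, which is known in the intestine for its part in the homing of lymphocytes and in the differentiation of the epithelium.

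Of the 3 binding proteins, Rbp2 and Rbp7 were called lower and Rbp4 was not. Rbp2, the cellular retinol-binding protein of absorptive enterocytes, was 2.39-fold lower with 10% RPS and 2.36-fold lower with 5% RPS than with 0% RPS, and in both diets every mouse lay below every mouse fed 0% RPS. The call at 5% RPS was lost when any of 6 of the 10 mice compared was left out. In those fits 0 to 5 genes passed at 5% RPS, against 30 with all mice. With smooth muscle markers as a covariate, a fit added after seeing the data, both calls were lost, as were those of all other genes. Rbp7, another cellular retinol-binding protein, was 2.77-fold lower with 10% RPS, also with no overlap between the mice, but its call was lost when any of 8 of the 10 mice compared was left out. In those fits 14 to 98 genes passed at 10% RPS, against 160 with all mice. Of all tested genes 0.495% were called lower at 10% RPS and 0.0977% at 5% RPS, and the RPS mice lay wholly below the 0% mice in 3.2% and 2.04%. Dhrs9, a short-chain dehydrogenase of the retinol-oxidizing kind, had estimates 2.39-fold lower with 5% RPS and 1.95-fold lower with 10% RPS that missed the adjusted threshold in edgeR with all mice. The other 6 genes, among them all 3 retinal dehydrogenases, gave no call at any dose.

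The stretches before the starts of Rbp2, Rbp7 and Dhrs9 are shown because these are the genes with the lowest estimates at 5 and 10% RPS. Each is the 250 bases before the start of the Ensembl canonical transcript in GENCODE on GRCm39, read 5′ to 3′ on the gene's strand. The capitals mark AGGTCA and AGTTCA, hexamers of the kind that nuclear receptors of the retinoid family bind, and TATAAA, the core of the TATA box. Each was searched as those 6 letters on both strands, and a match on the other strand is printed as its reverse complement. The stretches lie at chr9:98372326-98372575 (plus strand) for Rbp2, chr4:149539436-149539685 (minus strand) for Rbp7 and chr2:69210526-69210775 (plus strand) for Dhrs9.
Rbp2: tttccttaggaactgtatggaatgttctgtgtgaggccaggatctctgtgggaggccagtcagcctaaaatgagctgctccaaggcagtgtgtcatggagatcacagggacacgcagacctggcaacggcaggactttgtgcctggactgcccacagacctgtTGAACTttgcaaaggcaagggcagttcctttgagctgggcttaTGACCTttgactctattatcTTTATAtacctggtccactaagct
Rbp7: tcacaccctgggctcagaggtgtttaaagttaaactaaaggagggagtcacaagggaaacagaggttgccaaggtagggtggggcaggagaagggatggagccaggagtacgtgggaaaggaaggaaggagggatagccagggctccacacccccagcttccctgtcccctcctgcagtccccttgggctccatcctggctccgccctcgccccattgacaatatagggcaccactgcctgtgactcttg
Dhrs9: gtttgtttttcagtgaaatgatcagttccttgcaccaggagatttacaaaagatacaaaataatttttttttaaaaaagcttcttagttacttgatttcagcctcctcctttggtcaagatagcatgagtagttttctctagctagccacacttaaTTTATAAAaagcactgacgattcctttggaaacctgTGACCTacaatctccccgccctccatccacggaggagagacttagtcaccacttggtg
With the start as position 0, the Rbp2 window held AGTTCA on the other strand from -87 to -82, AGGTCA on the other strand from -44 to -39, and TATAAA at -24 to -19 on the other strand and at -1 to 4 on its own strand, the last of which runs past the printed end. The Dhrs9 window held AGGTCA on the other strand from -58 to -53 and overlapping matches to TATAAA on both strands between -94 and -87. In the Rbp7 window none of these letters were found, which says nothing of any factor. Over the windows from 250 bases before to 50 bases after the start of 15336 tested genes, AGGTCA was in 13.6% and AGTTCA in 11.7%, against 3 of the 9 genes for each. TATAAA was in 9.23% of the windows and in 5 of the 9. Direct repeats of the hexamers spaced by 1, 2 or 5 bases were in 0.0652%, 0.0326% and 0.00652% of the windows and in 0 of the 9. A match is a description of the sequence and not a binding site.

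Rbp2 (ENSMUSG00000032454, chr9:98368121-98391834, plus strand) is a protein-coding gene whose canonical transcript has 4 exons. Its values below are CPM, the share of a library's reads that fell on the gene, with library totals scaled by the trimmed mean of M-values (TMM). The 5 mice on 0% RPS had 54.8, 50.6, 73.3, 47.2 and 48.7 CPM, and the 5 on 2% RPS had 27.5, 44.5, 26.8, 40.8 and 23.5 CPM. With 5% RPS the values were 27.7, 21.9, 23.9, 19.8 and 22.9 CPM. With 10% RPS they were 16.9, 24.3, 17.2, 36.6 and 20.1 CPM. All 15 mice on RPS were below the lowest mouse on 0% RPS, whereas the 5 and 10% diets overlapped widely and had means of 23.2 ± 2.94 and 23 ± 8.16 CPM (SD, n = 5 each). The counts behind these values were 376 to 1953 reads per mouse. The log2 fold change against 0% RPS was -1.26 at 10% RPS (SE 0.207, 95% interval -1.69 to -0.82, edgeR adjusted p = 0.00847) and -1.24 at 5% RPS (SE 0.207, interval -1.67 to -0.81, adjusted p = 0.0297). At 2% RPS it was -0.75 (interval -1.18 to -0.32, unadjusted p = 0.00152), which did not pass after adjustment over all genes in edgeR (adjusted p = 0.712), in a comparison in which no gene of the 15348 passed. Over the percentage of RPS the slope was -0.12 log2 units per percent (edgeR adjusted p = 0.0333).

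Rbp2 kept its call at 10% RPS when each of the 10 mice of that comparison was left out in turn, with log2 fold changes of -1.48 to -1.13 and adjusted p values of 0.0012 to 0.0405 in edgeR. The call at 5% RPS was less firm. It was lost in edgeR without 0% RPS mouse 1 (adjusted p = 0.0514), without 0% RPS mouse 3 (adjusted p = 0.0777), and without 5% RPS mouse 2 (0.0501), mouse 3 (0.0797), mouse 4 (0.0798) or mouse 5 (0.109), although the log2 fold change stayed between -1.31 and -1.12. In these fits 0 to 5 genes passed at 5% RPS, where 30 had passed with all mice. The slope over dose lost its call in edgeR without 0% RPS mouse 1, 3, 4 or 5 (adjusted p of 0.0663, 0.0713, 0.0703 and 0.0687) and without 10% RPS mouse 1 or 3 (0.0916 and 0.0967). In these slope fits 0 to 14 genes passed, against 170 with all mice.

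Rbp7 (ENSMUSG00000028996, chr4:149534116-149539437, minus strand, 4 exons) was measured by few reads, 14 to 110 per mouse. Its CPM were 2.47, 1.47, 3.41, 1.95 and 3.16 with 0% RPS, and 2.04, 2.82, 0.749, 1.77 and 0.791 with 2% RPS. With 5% RPS they were 1.67, 1.04, 1.46, 0.944 and 1.08 CPM. With 10% RPS they were 0.976, 0.361, 1.11, 1.27 and 0.825 CPM. The highest mouse on 10% RPS was thus below the lowest on 0% RPS, while the 2 and 5% diets overlapped with 0% RPS. The log2 fold change was -1.47 at 10% RPS (SE 0.366, interval -2.24 to -0.71, edgeR adjusted p = 0.0434), -1.01 at 5% RPS (edgeR adjusted p = 0.193) and -0.62 at 2% RPS (edgeR adjusted p = 0.892). The slope was -0.14 log2 units per percent of RPS (edgeR adjusted p = 0.0464). The call at 10% RPS was held without 0% RPS mouse 2 or 10% RPS mouse 4 and was lost without any of the other 8 mice of that comparison. In the fits that held the call 344 and 302 genes passed, and in those that lost it 14 to 98, against 160 with all mice. With a mouse of the 2 or 5% diets left out, the call was held in 6 of 10 fits. Among the mice compared, the adjusted p in edgeR rose to 0.0708, 0.0929, 0.069 and 0.0834 without 0% RPS mouse 1, 3, 4 and 5, and to 0.111, 0.0848, 0.102 and 0.0843 without 10% RPS mouse 1, 2, 3 and 5. In a fit of only the 0 and 10% diets it was 0.0606 in edgeR. The slope over dose kept its call only without 0% RPS mouse 2, 2% RPS mouse 3 or 5, 5% RPS mouse 4 or 10% RPS mouse 4, and lost it without each of the other 15 mice (edgeR adjusted p of 0.0548 to 0.109). In those 15 slope fits 0 to 138 genes passed, against 170 with all mice.

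Rbp4 (ENSMUSG00000024990, chr19:38105066-38113754, minus strand) encodes the secreted protein that carries retinol in the blood, made above all by liver and adipose tissue. It had 61 to 229 reads per mouse. Its CPM were 7.45, 4.06, 5.03, 4.73 and 2.27 with 0% RPS, and 2.82, 2.84, 2.88, 5.65 and 3 with 10% RPS. With 10% RPS 4 mice lay between 2.82 and 3 CPM and mouse 4 lay apart, and the diets overlapped. The log2 fold change at 10% RPS was -0.46 (interval -1 to 0.08, edgeR adjusted p = 0.33), and at 5 and 2% RPS it was -0.19 and -0.09. Mouse 4 on 10% RPS also had the highest summed level of 8 adipocyte markers of its diet, 404.5 CPM against 36.9 to 114.5 CPM in the other 4 mice, and 0% RPS mouse 1, highest in Rbp4 of all, had 498.4 CPM. The median of the sum was 158 CPM with 0% RPS and 49.4 CPM with 10% RPS. Over the 20 mice Rbp4 and this sum had a Pearson r of 0.67 on log2 CPM, and 0.61 after each diet's mean was removed, given as a description since both come from the same libraries. The part of adipose tissue in the Rbp4 values was not tested.

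**Figure D1:**
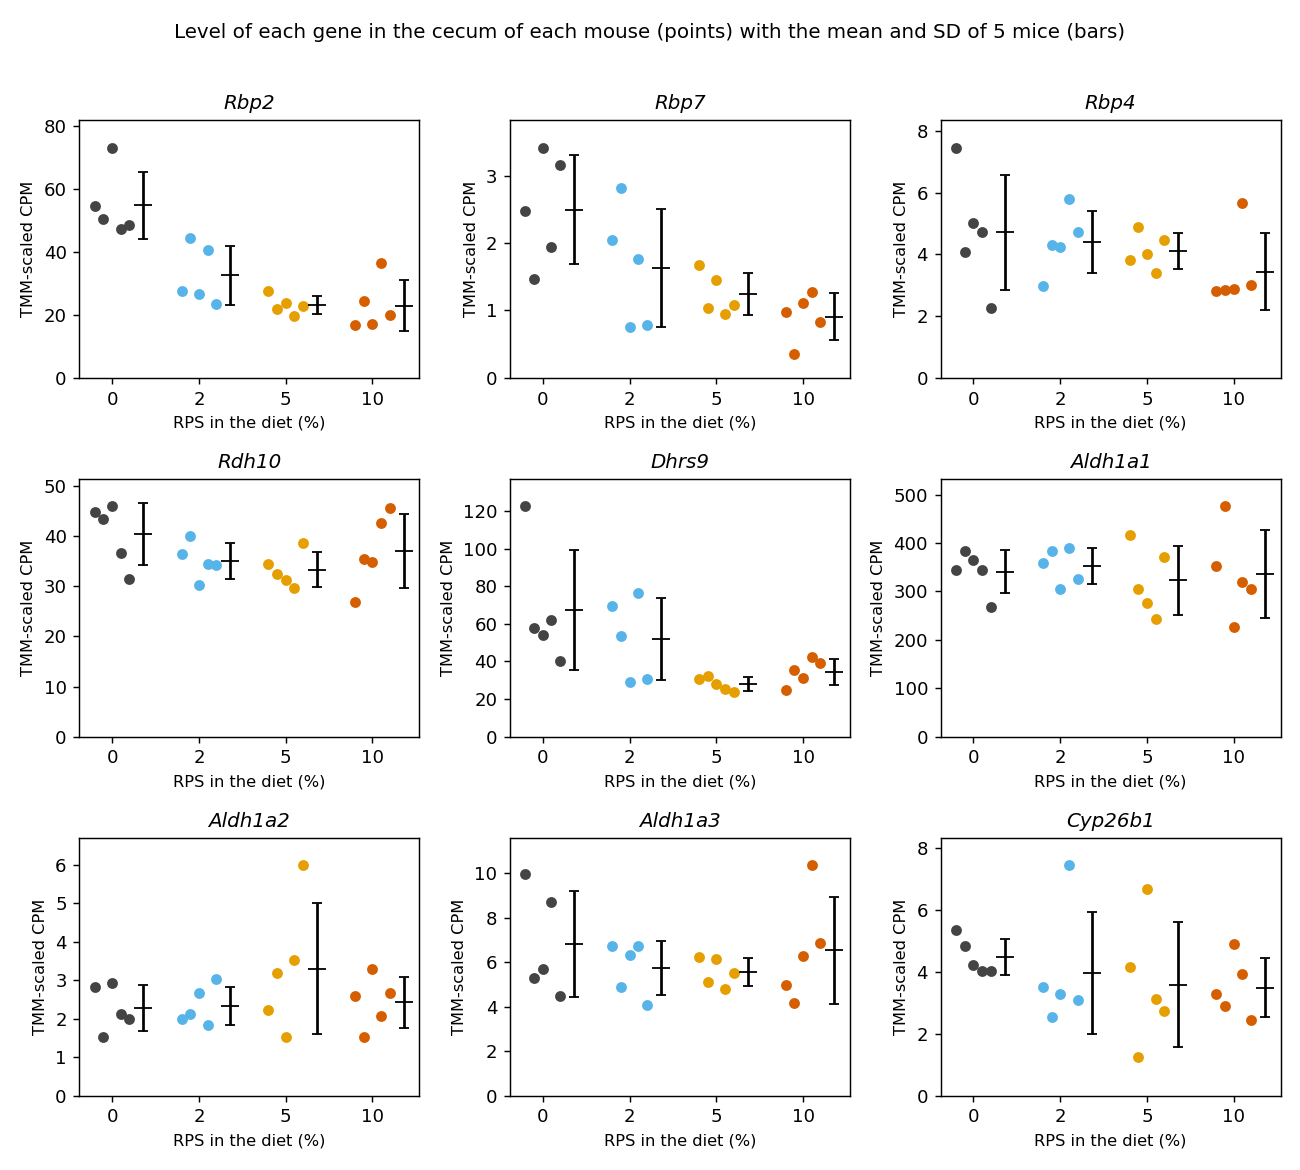
TMM-scaled CPM (vertical axes, each starting at 0) of the 9 genes in each mouse against the percentage of RPS in the diet, 1 point per mouse, with the mean and SD of 5 mice beside the points. Rbp2 is lower in all 15 mice on RPS than in any mouse on 0% RPS, the mice on 5 and 10% RPS also lie low in Rbp7 and Dhrs9, and the diets overlap in the other 6 genes.

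Among the retinol-oxidizing enzymes, Dhrs9 (ENSMUSG00000027068, chr2:69210776-69234877, plus strand, 5 exons) varied most between mice. With 0% RPS it had 122.4, 57.6, 54.1, 61.8 and 40.2 CPM, and with 2% RPS 69.6, 53.6, 29.1, 76.2 and 30.5 CPM. With 5% RPS the values were 30.7, 32.4, 28.2, 25.6 and 23.7 CPM. With 10% RPS they were 24.7, 35.6, 31.2, 42.3 and 39.2 CPM. All 5 mice on 5% RPS were below all on 0% RPS, while 1 mouse on 10% RPS was above the lowest mouse on 0% RPS. The log2 fold change was -1.26 at 5% RPS (SE 0.289, interval -1.86 to -0.65, edgeR adjusted p = 0.0644), -0.96 at 10% RPS (SE 0.286, interval -1.56 to -0.36, edgeR adjusted p = 0.0803) and -0.38 at 2% RPS. DESeq2's Wald test called Dhrs9 lower at both doses (adjusted p = 0.00135 and 0.0142). In edgeR it passed at 5% RPS without 2% RPS mouse 3, 4 or 5 (adjusted p of 0.0489, 0.0477 and 0.041), mice of a diet not compared. In these fits 55, 65 and 86 genes passed at 5% RPS, against 30 with all mice. Without 0% RPS mouse 1, whose 122.4 CPM stood far above the rest, the log2 fold change was -0.92 at 5% RPS and -0.63 at 10% RPS.

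Rdh10 (ENSMUSG00000025921, chr1:16175555-16203958, plus strand), the enzyme known for the first oxidation step in the embryo, was steady. It ranged from 31.4 to 45.9 CPM with 0% RPS, from 30.1 to 40 CPM with 2%, from 29.6 to 38.5 CPM with 5% and from 26.8 to 45.5 CPM with 10%. The ranges overlapped in every comparison. Its log2 fold changes were -0.2, -0.28 and -0.13 at 2, 5 and 10% RPS, of which that at 5% had an unadjusted p of 0.0406 and an edgeR adjusted p of 0.343. In the 0% diet Dhrs9 made up 59.2 ± 7.85% of the length-scaled level of both enzymes together, and in the 10% diet 46.7 ± 1.62% (SD, n = 5 each).

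The retinal dehydrogenases, which make retinoic acid, did not pass the threshold at any dose. Aldh1a1 (ENSMUSG00000053279, chr19:20469539-20622825, plus strand) had 343.8, 384, 364, 345.2 and 268.2 CPM with 0% RPS and 352.4, 475.5, 225.8, 319.9 and 305.7 CPM with 10% RPS. The 10% values lay on both sides of all 5 mice on 0% RPS. Its log2 fold change at 10% RPS was -0.02 with an interval of -0.36 to 0.32, so that a 1.5-fold change in either direction lay outside the interval. At 5% RPS it was -0.08 (interval -0.42 to 0.26), and at 2% RPS 0.05 (interval -0.29 to 0.39). Aldh1a1 was 95.6 ± 1.14% of the length-scaled level of the 3 retinal dehydrogenases with 0% RPS and 95.2 ± 1.99% with 10% RPS.

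Aldh1a2 (ENSMUSG00000013584, chr9:71122630-71203527, plus strand), the form of gut dendritic cells and stroma, had 24 to 130 reads per mouse. With 0% RPS it ranged from 1.51 to 2.93 CPM and with 10% RPS from 1.52 to 3.29 CPM. The widest range was in the 5% diet, 1.52 to 5.98 CPM, where the log2 fold change was 0.53 (interval -0.07 to 1.14, edgeR adjusted p = 0.45). Without the highest of those mice, mouse 5, it was 0.21. At 10% RPS it was 0.09 (interval -0.52 to 0.7). The 6 dendritic cell markers listed were low as well, with a summed level of 16 to 32.9 CPM with 0% RPS and 21.5 to 35.3 CPM with 10% RPS. Aldh1a3 (ENSMUSG00000015134, chr7:66040638-66077850, minus strand) ranged from 4.48 to 9.99 CPM with 0% RPS and from 4.16 to 10.4 CPM with 10% RPS, with log2 fold changes of -0.25, -0.3 and -0.07 at 2, 5 and 10% RPS (edgeR adjusted p of 0.959, 0.649 and 0.905).

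Cyp26b1 (ENSMUSG00000063415, chr6:84548396-84570890, minus strand), which hydroxylates retinoic acid, was the breakdown enzyme with measurable reads, 43 to 231 per mouse. It had 5.34, 4.82, 4.2, 4.03 and 4.02 CPM with 0% RPS and 3.28, 2.89, 4.9, 3.91 and 2.44 CPM with 10% RPS. The diets overlapped, and the log2 fold change was -0.36 (interval -1.06 to 0.33, edgeR adjusted p = 0.582). The spread was wider in the middle diets, 2.54 to 7.43 CPM with 2% RPS and 1.24 to 6.66 CPM with 5% RPS, where the log2 fold changes were -0.18 and -0.34. Cyp26a1, the related enzyme that retinoic acid induces strongly, averaged 0.0279 CPM over the 20 mice, below the 0.19 CPM that 3 counts amount to in the smallest library, and could not be compared.

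In counts, 2 of the 9 genes were past the threshold at 10% RPS, both lower, where 1.04% of all tested genes were past it in either direction and 0.495% lower. At 5% RPS 1 of the 9 was past it, lower, against 0.195% of all genes in either direction. At 2% RPS 0 of 9 were past it, as were 0% of all genes, in edgeR, with 1 of the 9 at an unadjusted p under 0.05 against 5.77% of all genes, and with 5 genes in all and 0 of the 9 in DESeq2's Wald test. For the slope over dose 2 of the 9 passed, against 1.11% of all genes. Groups that did not overlap, with the RPS mice lower, were found for Rbp2 and Rbp7 at 10% RPS (3.2% of all genes), for Rbp2 and Dhrs9 at 5% RPS (2.04%) and for Rbp2 at 2% RPS (0.671%). The median log2 fold change of the 9 genes was -0.363 at 10% RPS, -0.301 at 5% RPS and -0.204 at 2% RPS, where the medians over all tested genes were 0.004, -0.002 and 0.003. These comparisons share the same 5 mice on 0% RPS and are not independent of each other. The 9 genes were chosen with earlier results of these data known. The shares and medians of all genes beside them are thus a description and not a test.

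**Figure D2:**
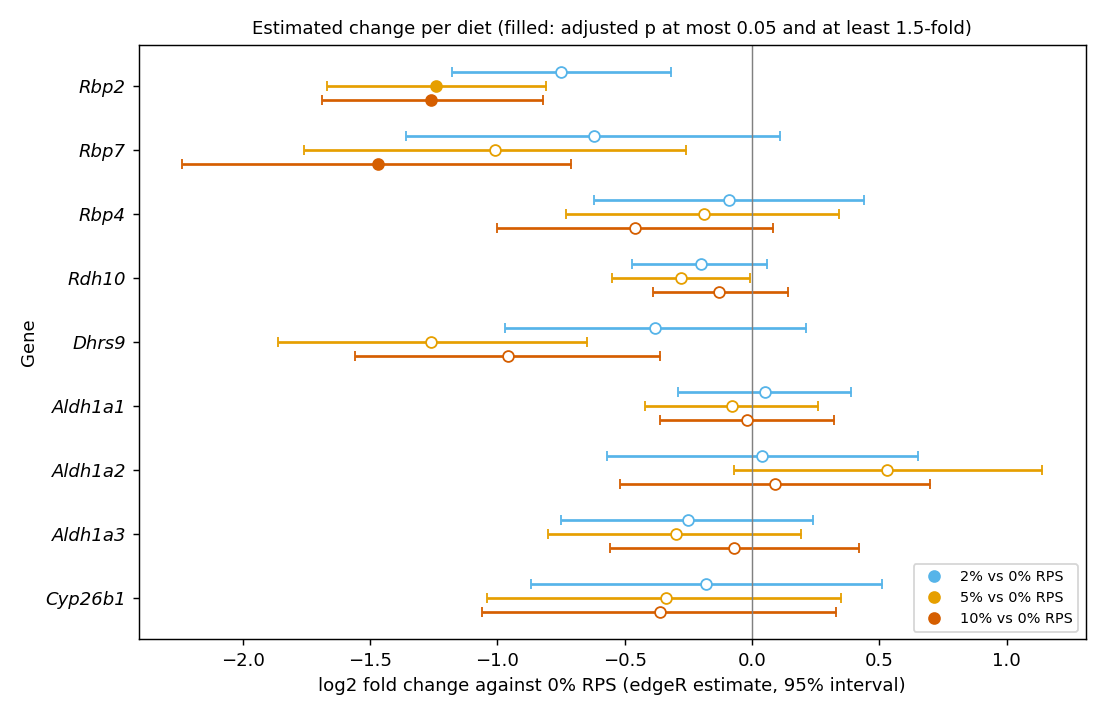
Estimated log2 fold change (horizontal axis) of each gene with 2, 5 and 10% RPS against 0% RPS, with 95% intervals and filled points for an edgeR adjusted p of at most 0.05 with a fold change of at least 1.5. The filled points are Rbp2 at 5 and 10% RPS and Rbp7 at 10% RPS, and the intervals of Rbp4, Aldh1a1, Aldh1a2, Aldh1a3 and Cyp26b1 include 0 at every dose.

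Levels can be set side by side only per length, here as CPM per kilobase of the canonical transcript (696 bases for Rbp2 and 6202 for Aldh1a1) over the 20 mice. Aldh1a1 stood highest at 54.5 ± 9.69 (SD, n = 20), followed by Rbp2 at 48.1 ± 22.1, Dhrs9 at 10.6 ± 5.57, Rdh10 at 9.04 ± 1.4, Rbp4 at 4.45 ± 1.34, Rbp7 at 2.53 ± 1.36, Aldh1a3 at 1.53 ± 0.436, Aldh1a2 at 0.953 ± 0.372 and Cyp26b1 at 0.722 ± 0.27. Rbp2 was above Dhrs9, and Rdh10 above Rbp4, in 20 of 20 mice. The neighbours Aldh1a1 and Rbp2 were not separated, with Aldh1a1 higher in 13 of 20 mice, and Dhrs9 was above Rdh10 in 8 of 20. By these lengths Rbp2 was the higher of the leading pair in the 0% diet, at 78.9 ± 15.3 against 55 ± 7.08 CPM per kilobase (SD, n = 5), and the lower in the 10% diet, at 33.1 ± 11.7 against 54.2 ± 14.7 CPM per kilobase. When the length of all annotated exons was used instead (1113 bases for Rbp2 and 10740 for Aldh1a1), the order was the same except that Cyp26b1 came before Aldh1a2. Which transcripts the reads came from was not measured. A transcript shorter than 6202 bases would place Aldh1a1 higher against Rbp2.

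**Figure D3:**
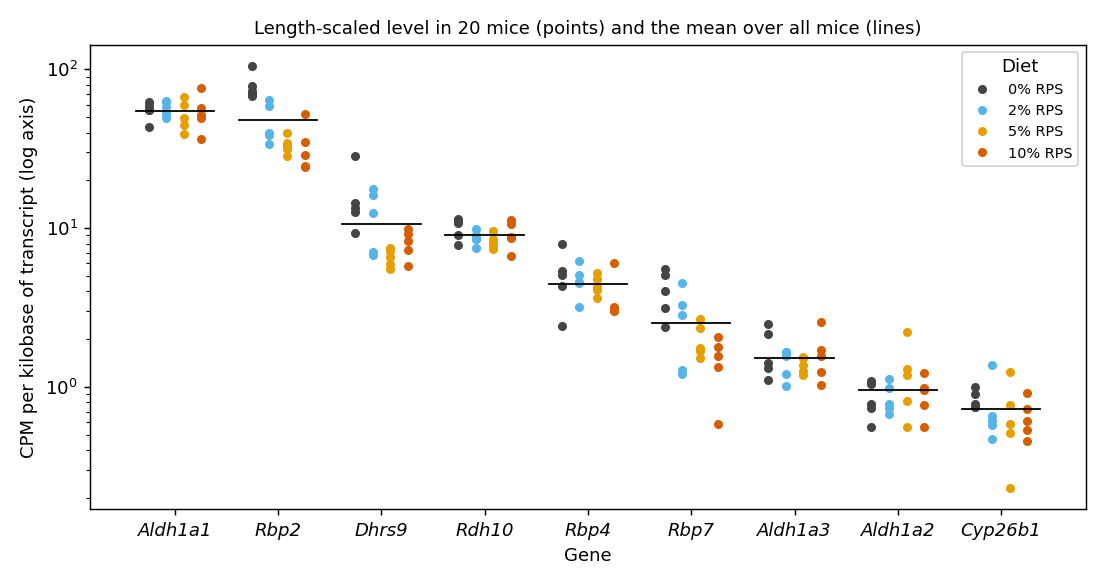
CPM per kilobase of canonical transcript (log axis) of the 9 genes, ordered by their mean over 20 mice (lines), with 1 point per mouse and the diets side by side. Aldh1a1 and Rbp2 lead with means of 54.5 and 48.1, and the 5 lowest means lie between 0.722 and 4.45.

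Large bowel enterocyte markers were abundant, with Car1 at 21100 CPM and Slc26a3 at 1620 CPM on average, and the 11 listed markers of small intestinal enterocytes were divided. Fabp1, Fabp6, Sis, Lct, Apoa1 and Apoa4 averaged under 1 CPM (0.302, 0.925, 0.46, 0.191, 0.569 and 0.757 CPM), whereas Fabp2 was at 1460 CPM, Apob at 213 CPM, Slc5a1 at 77.1 CPM, Alpi at 76.2 CPM and Anpep at 20.9 CPM. Rbp2 is best known from the small intestine but was read at 33.5 ± 15.4 CPM here (SD, n = 20).

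Of the lists of cell type markers, those of smooth muscle and fibroblasts had mostly higher estimates, and those of small intestinal enterocytes mostly lower ones, in the diets in which Rbp2 was lower. All 10 small intestinal markers that could be tested had lower estimates at 10% RPS, with a median log2 fold change of -0.617. Fabp2, Apob, Slc5a1, Anpep and Alpi, the well-read ones, had -0.26, -0.29, -0.2, -0.36 and -0.76, and the others averaged under 1 CPM. Of the 10 tested 5 had an unadjusted p under 0.05, against 19.5% of all tested genes. Apoa4, an apolipoprotein with 1 to 79 reads per mouse, and Alpi, an alkaline phosphatase, passed with log2 fold changes of -3.27 and -0.76 (edgeR adjusted p of 0.014 and 0.0275). At 5% RPS 9 of the 10 had lower estimates and 1 passed. Their summed level was 1860 to 2470 CPM with 0% RPS and 1350 to 2230 CPM with 10% RPS and was made up mainly of Fabp2. The summed level of 6 smooth muscle markers was 2440 to 5670 CPM with 0% RPS (median 3240), 3240 to 5660 with 2% (4200), 4150 to 9680 with 5% (6470) and 3990 to 6690 with 10% (5860), and all 6 markers had higher estimates at 5 and 10% RPS, 1 of them past the threshold at each dose. Of the 6 fibroblast markers 5 had higher estimates at 10% RPS, 3 of these with an unadjusted p under 0.05, while Pdgfra had a lower one (log2 fold change -0.31, unadjusted p = 0.0222), and 0 of the 6 passed the adjusted threshold in edgeR. Their sum was 403 to 559 CPM with 0% RPS and 502 to 788 CPM with 10% RPS. Of the 6 goblet cell markers all had lower estimates at 10% RPS and 1 passed, and of the 8 large bowel enterocyte markers 5 had lower estimates, of which 0 were past the adjusted threshold in edgeR and 3 had an unadjusted p under 0.05, and 1 of the 3 others passed as higher. At 10% RPS lower estimates were also given by 8 of 8 adipocyte markers (median log2 fold change -0.752), 6 of 6 markers of enteric glia and neurons (median -0.32) and 5 of 6 endothelial markers (median -0.227), and higher ones by 6 of 6 macrophage markers (median 0.218), 6 of 6 dendritic cell markers (median 0.439) and 6 of 6 B cell markers (median 1.963), while the 4 tested markers of mesothelium were divided. In edgeR 0 genes of these 7 lists passed at 10% RPS, and 7 had an unadjusted p under 0.05, as had 19.5% of all tested genes. Across mice the Pearson r of log2 CPM with the smooth muscle sum was -0.69 for Rbp2 and -0.76 for Dhrs9 (n = 20), and -0.37 and -0.54 after each diet's mean was removed. For Rbp7 it was weaker, -0.44 and -0.09. With the fibroblast sum it was -0.75 for Rbp2, -0.64 for Dhrs9 and -0.77 for Rbp7, and -0.49, -0.28 and -0.73 after each diet's mean was removed. The sums with a Pearson r above 0.5 with Rbp2 were those of large bowel enterocytes, mostly Car1 (0.69, and 0.4 after each diet's mean was removed), of the mesothelium list, nearly all of it the keratin Krt19 at 3010 CPM, which epithelial cells also make (0.62 and 0.3), small intestinal enterocytes (0.61 and 0.44) and goblet cells (0.56 and 0.1), and for adipocytes it was 0.5 and 0.53. CPM are shares of 1 library, so the values within a mouse are not independent.

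With the smooth muscle sum as a covariate, a fit chosen after seeing the data, no gene of the 15348 passed in edgeR at 10 or 5% RPS, where 160 and 30 genes had passed, and 3227 and 1524 genes had an unadjusted p under 0.05, where 2992 and 2038 had it without the covariate. In that fit the log2 fold change at 10% RPS was -1.06 for Rbp2 (edgeR adjusted p = 0.0809, unadjusted p = 0.000166), -1.43 for Rbp7 (edgeR adjusted p = 0.104) and -0.53 for Dhrs9 (edgeR adjusted p = 0.313). The sum itself differed with diet, so that the covariate and the diet share part of their variation. The 6 B cell markers summed to 4.96 to 203 CPM with 0% RPS and 14.3 to 273 CPM with 10% RPS, and with that sum as a covariate Rbp2 had a log2 fold change of -1.17 at 10% RPS (edgeR adjusted p = 0.0259) and Rbp7 one of -1.19 (edgeR adjusted p = 0.15). The endothelial markers summed to 101 to 129 CPM with 0% RPS and 87.8 to 127 CPM with 10% RPS, a sum led by Pecam1, the 1 of the 6 with a higher estimate at 10% RPS (log2 fold change 0.21), while Kdr and Tie1 had log2 fold changes of -0.33 and -0.36 (unadjusted p of 0.00869 and 0.0183). The marker sums came from the same libraries as the genes, and the smooth muscle sum differed with diet. These fits thus cannot separate tissue composition from diet, and the part of composition in the lower values was not tested.

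**Figure D4:**
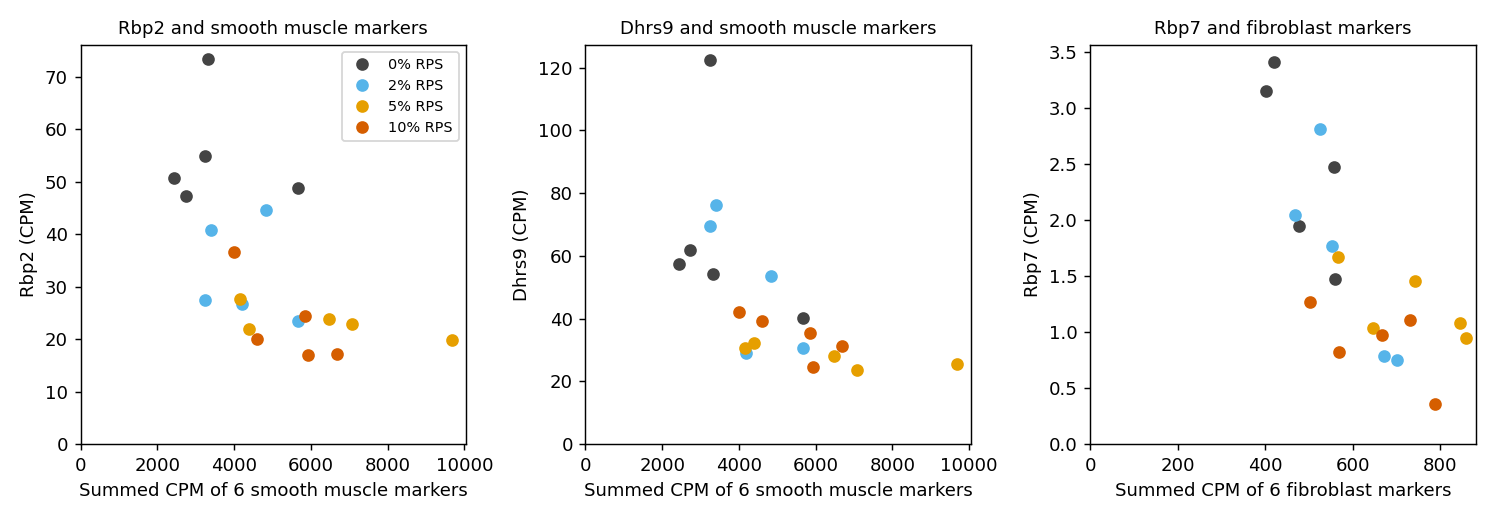
Rbp2 and Dhrs9 (CPM, vertical axes) against the summed CPM of 6 smooth muscle markers, and Rbp7 against that of 6 fibroblast markers, 1 point per mouse, colored by diet. The points run downward, with Pearson r on log2 CPM of -0.69, -0.76 and -0.77, and in the plot of Rbp2 the 5 mice on 0% RPS lie above all others.

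The other genes of vitamin A metabolism, a list of 56 of which 43 could be tested, gave no call in edgeR at any dose. DESeq2's Wald test called Itga4 higher at 10% RPS. At 10% RPS 20 had higher and 23 lower estimates, with a median log2 fold change of -0.013, and 4 had an unadjusted p under 0.05 against 19.5% of all genes, with 4 at 5% RPS (13.3% of all genes) and 1 at 2% RPS (5.77%). In binding and transport, Stra6l, a homologue of the retinol-binding protein receptor, had a log2 fold change of 0.27 at 10% RPS (edgeR adjusted p = 0.241), and Stra6, the receptor itself, one of 1.83 with an interval of -0.08 to 3.75.

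Of the retinol and retinal dehydrogenases, 13 of 20 could be tested and 0 passed in edgeR at any dose, with 2 at an unadjusted p under 0.05 at 10% RPS, and 0 passed in DESeq2's Wald test. Aldh1a7, a close relative of Aldh1a1, had 24.2, 20.9, 22.7, 23.6 and 20.3 CPM with 0% RPS and 15.3, 19, 10.3, 20.8 and 15.9 CPM with 10% RPS, with a log2 fold change of -0.46 (unadjusted p = 0.0148, edgeR adjusted p = 0.155). It passed at 5% RPS only without 5% RPS mouse 1 (edgeR adjusted p = 0.0491, log2 fold change -0.69). Rdh13, a mitochondrial retinol dehydrogenase, had one of -0.21 (edgeR adjusted p = 0.24). Dhrs3, which reduces retinal back to retinol and is induced by retinoic acid, was at 61.2 CPM with a log2 fold change of 0 (interval -0.21 to 0.21). Of the receptors and their cofactors all 10 could be tested and 0 passed or had an unadjusted p under 0.05 at 10% RPS. Rara, a retinoic acid receptor, and Rxra, the partner it binds DNA with, had log2 fold changes of 0 and 0.03. Esterification and carotenoid cleavage gave 0 calls of 5 tested genes in edgeR and in DESeq2's Wald test, and 0 had an unadjusted p under 0.05 at 10% RPS in edgeR. Lrat, which esterifies retinol, had a log2 fold change of 0.4 (interval -0.11 to 0.91), and Isx, the homeobox factor that restrains carotenoid uptake, one of -0.05 (interval -0.27 to 0.17).

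Of the genes listed as responsive to retinoic acid 9 of 10 could be tested and 0 passed in edgeR at any dose. An unadjusted p under 0.05 was given by 1 at 10% RPS and 2 at 5% RPS, against 19.5% and 13.3% of all genes. Those at 5% RPS were Rarres2, with a log2 fold change of 0.37 (edgeR unadjusted p = 0.00441, adjusted p = 0.14), and Tgm2, with one of 0.43 (edgeR unadjusted p = 0.0286, adjusted p = 0.3). Itga4, the integrin subunit of gut-homing lymphocytes, had 3.13, 4.38, 2.48, 2.25 and 1.49 CPM with 0% RPS and 7.6, 2.99, 6.57, 5.18 and 7.32 CPM with 10% RPS. The diets overlapped through mouse 2 on 10% RPS, and the log2 fold change was 1.11 (interval 0.43 to 1.8, edgeR adjusted p = 0.0763, DESeq2 adjusted p = 0.0204). In edgeR it passed at 10% RPS without 0% RPS mouse 2 (adjusted p = 0.037) or 2% RPS mouse 3 (0.0272). Its slope over dose was 0.1 log2 units per percent of RPS (edgeR adjusted p = 0.0767), which passed in DESeq2's Wald test (adjusted p = 0.0244) and in edgeR without 2% RPS mouse 3 (0.0169) or 10% RPS mouse 2 (0.0498). Itga4 is made by lymphocytes, and the B cell marker sum had medians of 19.2 CPM with 0% RPS and 223 CPM with 10% RPS. The part of lymphoid tissue in the Itga4 values was not tested.

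**Figure D5:**
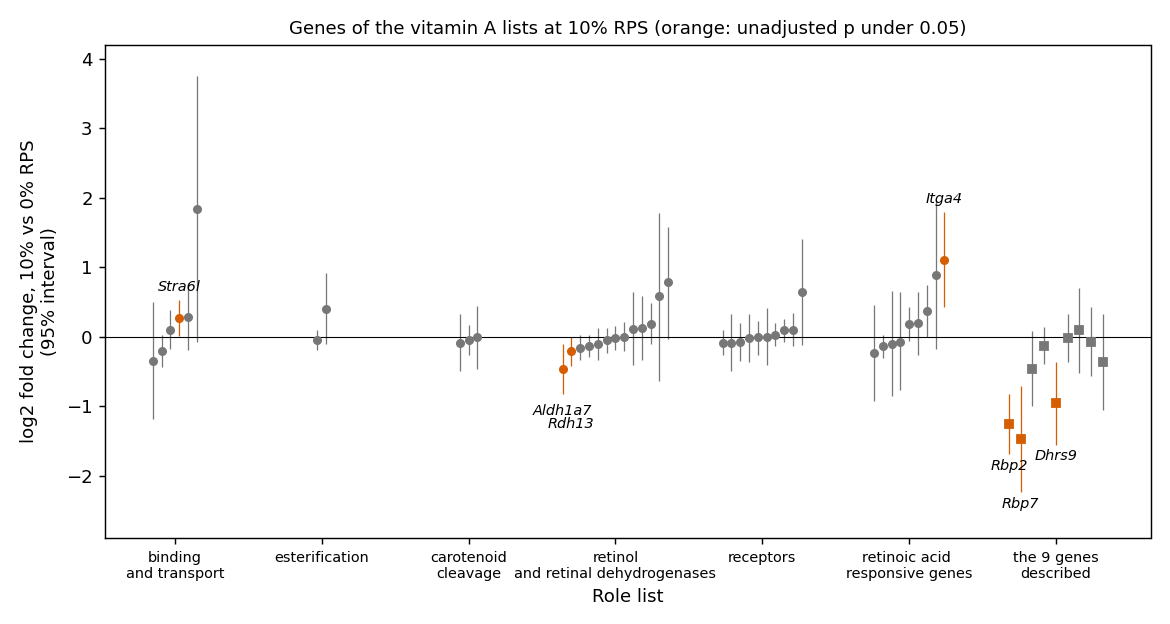
Log2 fold change at 10% RPS against 0% RPS with 95% intervals (vertical axis) for the tested genes of each vitamin A role list (circles) and for the 9 genes described (squares), in orange where the unadjusted p was under 0.05. Of the 43 list genes 4 are orange, from Aldh1a7 at -0.46 to Itga4 at 1.11, and Rbp2, Rbp7 and Dhrs9 lie below all of them. The 9 genes and the lists were chosen with earlier results of these data known.

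The binding proteins among the 9 genes also differed in their proportions. Of the summed length-scaled level of Rbp2, Rbp4 and Rbp7, Rbp2 was 89.7 ± 1.82% with 0% RPS, 86.3 ± 1.27% with 2%, 83.9 ± 1.31% with 5% and 86.3 ± 2.79% with 10% (SD, n = 5 each). The mice on 0% RPS had 86.8 to 91.6% and those on 5% RPS 82 to 85.5%, without overlap, whereas those on 10% RPS had 83.6 to 90.6% and overlapped with 0% RPS. The share of Rbp4 was 5.72 ± 2.13% with 0% RPS and 9.64 ± 1.05% with 10% RPS, and that of Rbp7 was 4.57 ± 1.3% and 4.07 ± 1.79%. These shares restate the CPM given above and were not tested.

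Rbp2 and Rbp7 varied together over the 20 mice, with a Pearson r of 0.75 and a Spearman rho of 0.75 on log2 CPM, and 0.48 for Pearson's r after each diet's mean was removed. For Rbp2 and Dhrs9 these were 0.74, 0.75 and 0.45. Correlations are given as descriptions, with no test, since all points share their libraries with the genes compared. Of all 15347 other tested genes, those most like Rbp2 over the 20 mice were Ndrg1 (r = 0.93), a gene of differentiation and hypoxia, and Dgat2 (r = 0.923), an enzyme of triglyceride synthesis, with 0.798 and 0.802 after each diet's mean was removed. The genes most like Rbp7 were Zwint (r = 0.848) and Hilpda (r = 0.845), and those most like Dhrs9 were Zdhhc13 (r = 0.945) and Dock5 (r = 0.904). Rbp4 was most like Cd36 (r = 0.79) and Lpl (r = 0.741), both of fatty acid uptake.

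For the genes that did not pass, the closest patterns were Czib (r = 0.849) and Znrf2 (r = 0.781) for Rdh10, Cog4 (r = 0.848) and Scfd1 (r = 0.842) for Aldh1a1, Homer3 (r = 0.745) and Gnpda1 (r = 0.729) for Aldh1a2, Cpsf3 (r = 0.763) and Ramp3 (r = 0.726) for Aldh1a3, and Hrct1 (r = 0.815) and Glis3 (r = 0.738) for Cyp26b1, all over 20 mice. Each pair holds the 2 highest of 15347 correlations, and a high value among so many says little by itself. Aldh1a1 also varied with the summed small intestinal enterocyte markers (r = 0.68, and 0.74 after each diet's mean was removed), a sum made up mainly of Fabp2, and almost as closely with the large bowel enterocyte sum, mostly Car1 (r = 0.61 and 0.7).

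Overlaps and shared sequence could bear on the counts. Rbp4 overlaps Ffar4 on the opposite strand, and Rbp2 overlaps Gm37113 on its own strand, both of which are in the count table. Of all 50-base stretches of the canonical transcript, 0% were shared with another gene's transcript for Rbp2, Rbp7, Rbp4, Rdh10, Aldh1a2, Aldh1a3 and Cyp26b1, 0.236% for Dhrs9, and 3.27% for Aldh1a1. Those of Dhrs9 were found in 9 other genes and those of Aldh1a1 in 413, Aldh1a7 among them. How reads of several genes or of the other strand were counted is not given in the sources used here.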

How the data were processed

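The authors made stranded poly(A) libraries from cecum RNA, sequenced them with single-end reads, and used the CLC Genomics Workbench to trim low-quality nucleotides, drop ambiguous reads and map what was left to GRCm39. They deposited raw read counts per gene and mouse, 14967798 to 42687283 per mouse, and no normalized values. The annotation release, the strand setting and how reads matching several genes were treated are not given in the sources used here. Groups came from the treatment labels, and mice are numbered 1 to 5 within a diet in accession order.

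Gene names, coordinates, transcript lengths and sequences came from GENCODE mouse release M39 on GRCm39, in which 19827 of 19887 identifiers were found. Genes with low counts were removed with filterByExpr (minimum count 10, minimum total 15). Counts were scaled by TMM and fitted with the robust quasi-likelihood model of edgeR 4.0.16 (R 4.3.3, limma 3.58.1) over all 4 diets, with p-values adjusted by Benjamini-Hochberg over 15348 genes. A call needed an adjusted p of at most 0.05 and a fold change of at least 1.5, or the adjusted p alone for the slope over dose, which was fitted as a separate model. Standard errors came from the fold change and the F statistic, intervals from the t distribution with the model's degrees of freedom, and log2 CPM from a prior count of 2. The models were tested on simulated data.

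Alternatives were DESeq2's size factors, the Wald test of DESeq2 1.42.0, other filters on low counts, the model without robust estimation, a fit of only the diets compared, each mouse left out, and marker sums as covariates, the last added after seeing the data. The genes named are the 9 described, the list genes with an unadjusted p under 0.05 at 10 or 5% RPS or mentioned for their role, and for each of the 9 the 2 tested genes with the highest Pearson r. The 9 genes, the vitamin A lists and the marker lists were chosen with earlier results of these data known. The other tissues of the study were not analysed here, and 1 gene is not reported here. Counting error alone makes 3 counts the smallest level that can be shown, and the reads carry no molecular identifiers.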

Additional observations from a re-analysis of the deposited data

Results flagged for a closer look

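In 36 groups of 5 mice (9 genes in 4 diets) 4 held a mouse that stood apart, its gap to the nearest mouse divided by the range of the group being above 0.71. Chance gives such a mouse in about 1 group in 20. For Rbp4 the ratio was 0.9371, for mouse 4 on 10% RPS at 5.65 CPM, and without it the log2 fold change at 10% RPS was -0.7 (edgeR adjusted p = 0.111). For Cyp26b1 it was 0.8028, for mouse 4 on 2% RPS at 7.43 CPM, and without it the log2 fold change at 2% RPS was -0.53. For Dhrs9 it was 0.7376, for mouse 1 on 0% RPS at 122.4 CPM, and without it the log2 fold change at 10% RPS was -0.63. For Rbp2 it was 0.7102, just past that value, for mouse 3 on 0% RPS at 73.3 CPM, and without it the log2 fold change at 10% RPS was -1.13, still a call. The cause of these values was not tested.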

How the results depend on the processing

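Rbp2 was lower at 10% RPS in every fit and passed the threshold in all but the fit with the smooth muscle covariate. With 8 other settings the number of the 9 genes past the threshold at 10% RPS ranged from 0 to 3, where it was 2. DESeq2's Wald test raised the counts of all genes to 368, 241 and 5 at 10, 5 and 2% RPS from 160, 30 and 0, and those of the slope over dose to 293 higher and 413 lower from 58 and 112. It gave 2 of the 9 genes at 5% RPS in place of 1, and called 1 gene of the vitamin A list at 10% RPS in place of 0. Without a filter on low counts 37 genes passed for the slope as higher and 66 as lower, 1 of them among the 9. In a fit of only the diets compared 98 genes and 1 of the 9 passed at 10% RPS, and 65 genes at 5% RPS.

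With smooth muscle markers as a covariate, added after seeing the data, 0 genes and 0 of the 9 passed at 10% RPS, at 5% RPS and for the slope. Of the 9 genes 2 had an unadjusted p under 0.05 each time, against 3227, 1524 and 2892 of the 15348 tested. Estimates of genes that were not called changed sign in that fit: at 10% RPS Rdh10 became 0.03, Aldh1a1 0.2, Aldh1a2 -0.21 and Aldh1a3 0.3, at 5% RPS Rbp4 became 0.24, Aldh1a1 0.19 and Aldh1a3 0.2, and at 2% RPS Rbp4 became 0.1 and Aldh1a2 -0.12. The slopes of Rdh10, Aldh1a1, Aldh1a2 and Aldh1a3 became 0.0096, 0.0134, -0.0233 and 0.0338. With B cell markers as a covariate 98 genes and 1 of the 9 passed at 10% RPS, 66 genes at 5% RPS, and 41 genes as lower and 0 of the 9 for the slope, and Aldh1a1 became 0.07 at 10% RPS with a slope of 0.00521. The causes were not tested.

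With single mice left out, between 14 and 344 genes passed at 10% RPS, 0 and 114 at 5% RPS, and 0 and 378 as higher and 0 and 322 as lower for the slope, the extremes at 10% RPS being without 10% RPS mouse 3 and without 0% RPS mouse 2. Of the 9 genes 1 to 2 passed at 10% RPS, 0 to 2 at 5% RPS and 0 to 2 for the slope, and of the vitamin A list 0 to 1 at 10% RPS. Changes of sign were limited to genes that were not called: Aldh1a1 (-0.18 to 0.1), Aldh1a2 (-0.04 to 0.22) and Aldh1a3 (-0.29 to 0.11) at 10% RPS, Rbp4 (-0.37 to 0.04) and Aldh1a1 (-0.19 to 0.01) at 5% RPS, Rbp4 (-0.26 to 0.14), Aldh1a1 (-0.02 to 0.1) and Aldh1a2 (-0.07 to 0.14) at 2% RPS, and the slopes of Aldh1a1 (-0.0212 to 0.00591) and Aldh1a3 (-0.0251 to 0.0134).

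No paired analysis was possible because the mice of different diets are different animals and their numbers here only name them. At 14 to 110 reads per mouse Rbp7 is limited by depth more than Rbp2 at 376 to 1953.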

Other observations

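Of the 56 other genes of the vitamin A list, 54 were in the count table and 11 of these had too few reads to be tested. Among them were Crabp2, which carries retinoic acid to its receptors (0.0937 CPM over the 20 mice), the retinol-oxidizing alcohol dehydrogenases Adh4 (0.064 CPM) and Adh7 (0.0294 CPM), and Aldh8a1 (0.0602 CPM). Adh1, of the same family, was at 42 CPM with a log2 fold change of 0.11 at 10% RPS (interval -0.41 to 0.64), and Adh5 was at 160 CPM with one of -0.05 (interval -0.23 to 0.13). Retsat, which saturates retinol, was at 99.9 CPM with one of -0.02 (interval -0.19 to 0.15). Among the receptors Rarb, itself a target of retinoic acid, was at 3.14 CPM with one of -0.07 (interval -0.35 to 0.2).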
